A study of Mus musculus with 26 samples.

Results

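Monocytes were compared with polymorphonuclear cells (PMN) from the spleens of mice that had received a PI3K inhibitor, in 8 of the 26 libraries of the study: 4 libraries of treated monocytes and 4 of treated PMN, chosen by their sample labels. All animals were KPC mice, a genetically engineered model that develops pancreatic ductal adenocarcinoma, and bore tumours. The 8 libraries came from animals given GS9820, which blocks p110δ, a catalytic subunit of PI3K found mainly in leukocytes, for 14 days, so the treatment was shared by both groups and the comparison is between cell types, not between treatments. The labels mark the PMN as "low" and the monocytes as "high" without saying for which marker. The 6 sorted libraries of vehicle mice (3 of each cell type) entered the same model fit. They served the test of whether the difference between cell types depended on treatment. They also contributed to the gene filter and to the estimate of the spread, so standard errors and calls below depend partly on them. The 12 tumour libraries were not used. The age of the mice and the sort gates are not given in the sources used here, and the labels do not say whether the 4 libraries of a group came from 4 mice, so p-values measure the spread between these samples, which may be technical.

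Monocytes and neutrophils arise from common myeloid progenitors. Classical monocytes leave the marrow through the chemokine receptor CCR2, depend on CSF1 receptor signalling, and can become macrophages or dendritic cells in tissue. Neutrophils, the main PMN, depend on G-CSF and its receptor CSF3R, are drawn into tissue through CXCR2, and carry granules whose contents are made in order during maturation: azurophil granules in promyelocytes, then specific granules, then gelatinase granules. In tumour-bearing mice both lineages expand in the spleen, and cells of both that restrain T cells are known as myeloid-derived suppressor cells.

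The files give 1 value per gene and library on a log2 scale, which the authors name log2 RPKM. The libraries share nearly 1 distribution of values, so total depth cannot be read from them, counting error is unknown and the values are called deposited log2 values here. Replicates were close: correlations between libraries ran from 0.973 to 0.984 within treated monocytes and from 0.965 to 0.981 within treated PMN, against 0.792 to 0.856 between the cell types. The median SD of a gene over replicates was 0.199 in treated monocytes and 0.218 in treated PMN, below the 0.331 of vehicle monocytes and the 0.263 of vehicle PMN. Libraries of sorted cells were made with 1 of 2 kits, and which kit was used for which library is not given, so an effect of the kit and one of the cell type cannot be told apart.

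The 4 genes that mark the cells went with their labels in every library. F13a1, coagulation factor XIII A chain and a marker of monocytes (chr13:36867178-37050244, GRCm38, minus strand), was at 10.93, 10.77, 9.56 and 9.69 in the monocyte libraries and 3.74, 5.73, 3.99 and 4.11 in the PMN libraries. Fn1, which encodes fibronectin (chr1:71585520-71653200), was at 11.90, 11.57, 11.001 and 11.14 in the monocyte libraries and 5.68, 7.08, 6.03 and 6.46 in the PMN libraries. Cxcr2, the receptor for neutrophil-attracting chemokines (chr1:74153989-74161246), was at 12.40, 12.12, 12.40 and 12.23 in the PMN libraries and 7.62, 5.70, 7.79 and 6.49 in the monocyte libraries. Csf3r, the G-CSF receptor (chr4:126024550-126044440), was at 12.83, 12.40, 12.92 and 13.02 in the PMN libraries and 8.99, 9.17, 9.002 and 9.09 in the monocyte libraries. No library of either group overlapped the other for these genes. The differences, monocytes minus PMN with the standard error of the fit and 4 libraries a group throughout, were 5.85 ± 0.51 for F13a1, 5.09 ± 0.61 for Fn1, -5.39 ± 0.62 for Cxcr2 and -3.73 ± 0.16 for Csf3r. Both PMN markers were also present in the sorted monocytes, at 5.70 or more for Cxcr2 and 8.99 or more for Csf3r.

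**Figure D1:**
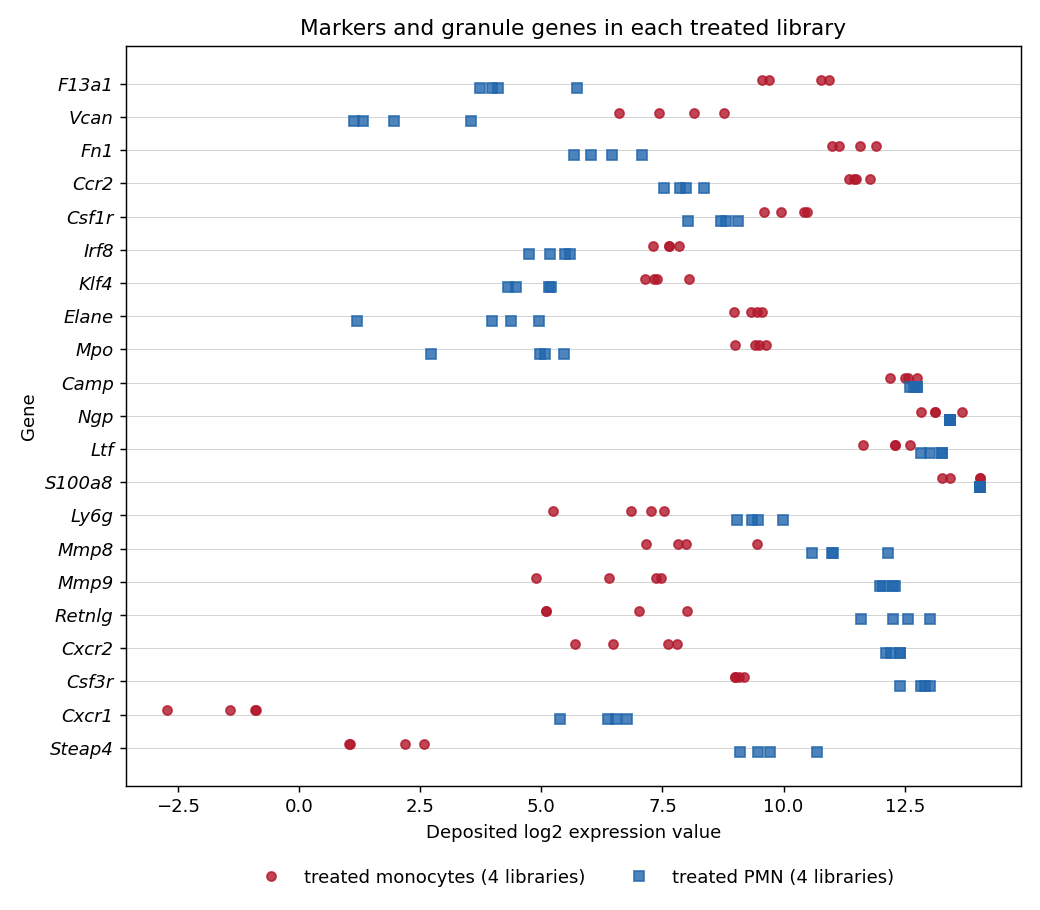
Deposited log2 expression values (x axis) of 21 marker and granule genes (y axis) in each treated library, with red circles for the 4 monocyte and blue squares for the 4 PMN libraries. F13a1, Vcan and Fn1 lie far to the right in monocytes and Cxcr1 and Steap4 far to the right in PMN, while the symbols of Camp overlap at the right edge.

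Of 13968 genes tested, 5248 (37.6%) were higher in treated monocytes and 4477 (32.1%) were higher in treated PMN at an adjusted p under 0.05 (limma, Benjamini-Hochberg), 9725 (69.6%) in all. The 4 libraries of one cell type did not overlap the 4 of the other for 69.5% of genes, with monocytes the higher in 37.4% and PMN in 32.1%. A share this large is the background against which every count below has to be read. At a difference of at least 2 (4-fold), 778 genes (5.57%) were higher in monocytes and 1162 (8.32%) in PMN. The PMN side was longer at its far end as well: 233 genes were higher in PMN by at least 4, against 16 in monocytes. Over all genes the median difference was 0.07, and single genes ran from 5.85 (F13a1) to -8.04 (Steap4).

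**Figure D2:**
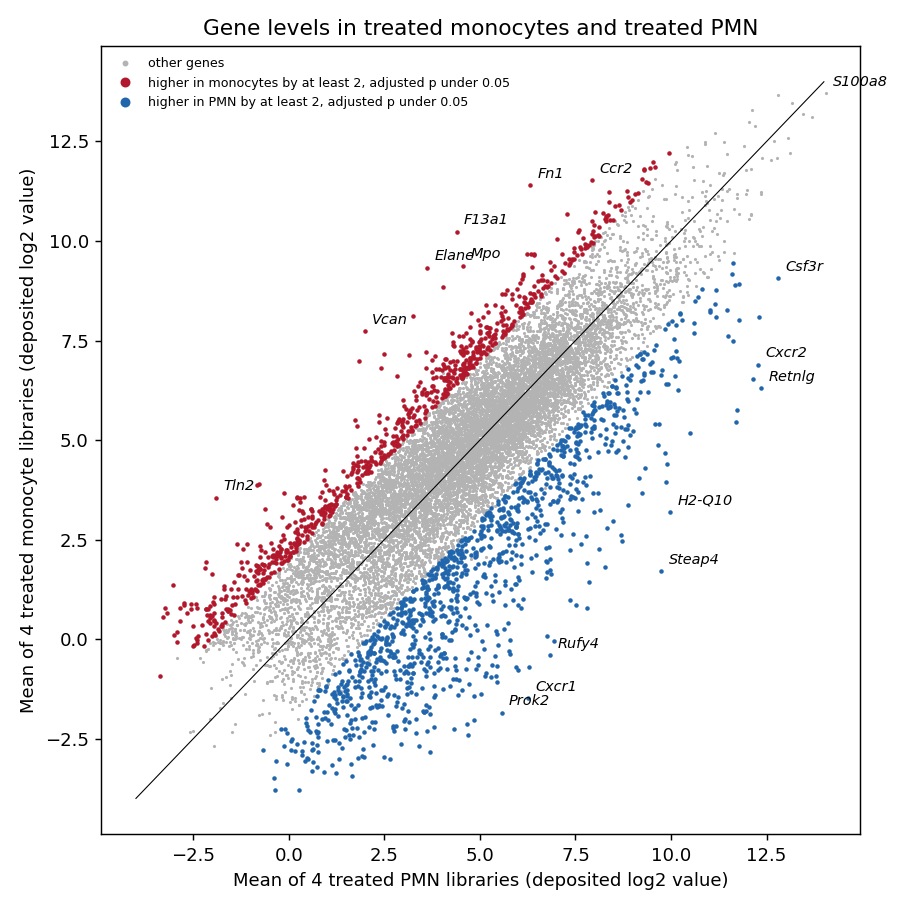
Mean deposited log2 value of each tested gene in the 4 treated PMN libraries (x axis) against that in the 4 treated monocyte libraries (y axis), with the line of equality. Red points are the 778 genes higher in monocytes by at least 2 and blue points the 1162 higher in PMN by at least 2, and the blue cloud reaches farther from the line.

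Whether these differences belonged to treated animals was tested by the interaction of cell type and treatment. It passed for 0 of 13968 genes in limma (smallest adjusted p = 0.9998), and 269 genes had an unadjusted p under 0.05, fewer than the 698 that no effect would give. Vehicle monocytes and vehicle PMN, which share no library with the treated groups but share the fit's estimate of the spread, showed the same sign for 9664 of the 9725 genes called in treated cells. Of these 9725 genes, 7928 were called in vehicle cells with the same sign, which is 81.5% of the treated and 94.5% of the vehicle calls, and 1 was called with the opposite sign. Among the 1940 genes with a difference of at least 2, 1938 had the same sign in vehicle cells. The absence of a call does not show that the differences were equal in treated and vehicle mice.

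The 12 largest monocyte-side differences held 4 genes of the azurophil granule list and 8 genes of mixed roles. F13a1 was 57.6-fold higher in monocytes (limma adjusted p = 8.29e-07). Vcan, which encodes the matrix proteoglycan versican, was at 8.77, 8.15, 7.44 and 6.61 in the monocyte libraries and 1.14, 3.56, 1.96 and 1.32 in the PMN libraries, a difference of 5.75 ± 0.85 (limma adjusted p = 6.27e-05), and PMN library 2 was the highest of the PMN. Fn1 differed by 5.09 ± 0.61, and the antisense gene Apol7d, which overlaps Fn1 on the opposite strand, differed by 5.16 ± 0.77. Because the strand setting of the counting is not given, reads of Fn1 and Apol7d cannot be told apart. Itga1, the integrin subunit that pairs with beta 1 to bind collagen, differed by 4.68 ± 0.53, and Tln2, which encodes talin 2, a link from integrins to actin, by 5.47 ± 0.72. The phosphatase gene Ptprd (4.70 ± 0.72) and the phospholipase gene Plcb1 (4.40 ± 0.64) completed the non-granule members of the 12 largest. In vehicle cells Ptprd differed by 1.81 ± 0.83 and did not pass (limma adjusted p = 0.0773). Its interaction with treatment did not pass either (limma unadjusted p = 0.0217, adjusted p = 0.9998).

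Genes of the azurophil granule made up the other 4. Elane, neutrophil elastase (chr10:79886247-79888215, plus strand), was at 9.33, 9.45, 9.57 and 8.98 in the monocyte libraries and 3.98, 4.95, 4.37 and 1.19 in the PMN libraries, a difference of 5.71 ± 0.77 (limma adjusted p = 3.04e-05). Mpo, myeloperoxidase, was at 9.42, 9.63, 9.49 and 8.996 in the monocyte libraries and 4.97, 5.47, 5.08 and 2.72 in the PMN libraries, a difference of 4.83 ± 0.63. Both were lowest in PMN library 4 and did not overlap between the cell types. Prtn3, proteinase 3, which lies next to Elane, differed by 4.81 ± 0.69 and Ctsg, cathepsin G, by 4.65 ± 0.77. An antisense gene, Gm11505, overlaps Mpo and differed by 4.87 ± 0.72, so their reads cannot be told apart either.

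The window of 250 bases before to 50 after the annotated start was searched for a pair of motifs in F13a1, Ccr2, Elane, Cxcr2, Csf3r and Steap4, and the windows with a match are shown. The windows of the marker genes Ccr2, Cxcr2 and Csf3r held 0 matches to either motif and are not shown. All come from RefSeq (GRCm38.p6) and read 5′ to 3′ on the gene's strand. Capitals mark the matches to AGGAAGT, a core of the motif of PU.1, and to TTGCNNAA, a form of the C/EBP motif, on either strand. F13a1 has a pair of annotated starts. The window of one of them (chr13:37049164-37049463, minus strand) holds 2 matches to AGGAAGT, and that of the other (chr13:37050195-37050494) holds 0. The Elane window (chr10:79886062-79886361, plus strand) holds 1 match to AGGAAGT, and the Steap4 window (chr5:7960222-7960521, plus strand) holds 1 match to TTGCNNAA.
F13a1: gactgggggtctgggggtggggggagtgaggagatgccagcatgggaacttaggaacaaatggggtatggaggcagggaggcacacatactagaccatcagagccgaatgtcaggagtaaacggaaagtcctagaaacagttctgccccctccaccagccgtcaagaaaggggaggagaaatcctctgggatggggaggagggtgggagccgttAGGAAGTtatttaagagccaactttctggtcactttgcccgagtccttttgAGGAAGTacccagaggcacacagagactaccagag
Elane: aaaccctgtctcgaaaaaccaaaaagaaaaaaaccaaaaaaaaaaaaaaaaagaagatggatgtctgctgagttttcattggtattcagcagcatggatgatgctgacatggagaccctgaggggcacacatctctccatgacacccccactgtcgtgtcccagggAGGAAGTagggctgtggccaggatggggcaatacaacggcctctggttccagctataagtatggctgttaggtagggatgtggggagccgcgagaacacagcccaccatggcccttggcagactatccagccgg
Steap4: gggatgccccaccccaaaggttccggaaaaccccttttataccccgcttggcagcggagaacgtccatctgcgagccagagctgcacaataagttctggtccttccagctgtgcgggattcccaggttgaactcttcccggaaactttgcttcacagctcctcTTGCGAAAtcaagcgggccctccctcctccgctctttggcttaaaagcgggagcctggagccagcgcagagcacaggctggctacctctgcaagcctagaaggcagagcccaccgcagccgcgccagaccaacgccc
The next shares are of genes with an annotated promoter, and a gene counted if any of its windows held a match. AGGAAGT was found for 11.5% of 9465 tested genes. It was found for 11.2% of 484 genes higher in monocytes by at least 2, and for 14.3% of 734 higher in PMN by at least 2. For TTGCNNAA the shares were 10.3%, 10.3% and 13.2%. A match is a string of letters and says nothing of binding.

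On the PMN side the differences were larger. Steap4, a metalloreductase of the plasma membrane (chr5:7960457-7982213), was at 9.47, 9.73, 10.70 and 9.10 in the PMN libraries and 2.18, 1.06, 2.58 and 1.03 in the monocyte libraries, a difference of -8.04 ± 0.45 or 263-fold (limma adjusted p = 3.69e-08). Cxcr1, the second receptor of the neutrophil chemokine family, was at 6.54, 6.39, 6.76 and 5.39 in the PMN libraries and -0.88, -2.73, -0.90 and -1.42 in the monocyte libraries, a difference of -7.75 ± 0.52. Prok2, which encodes the chemoattractant prokineticin 2, was at 5.70, 7.01, 6.18 and 3.38 in the PMN libraries and -0.55, -2.20, -1.19 and -3.44 in the monocyte libraries, a difference of -7.41 ± 0.80, and its PMN values spread widely, with library 4 lowest. Acod1, the enzyme that makes itaconate, was at 6.62, 6.69, 6.31 and 5.56 in the PMN libraries and -0.05, -0.63, -1.49 and -0.61 in the monocyte libraries, a difference of -6.99 ± 0.49. None of the 4 genes overlapped between the cell types.

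The other members of the 12 largest on this side covered several roles. Hcar2, the niacin and hydroxybutyrate receptor, differed by -6.65 ± 0.31. St3gal6, a sialyltransferase that helps build selectin ligands, differed by -6.69 ± 0.23 (limma adjusted p = 2.59e-09), and Entpd3, an enzyme that breaks down extracellular nucleotides, by -7.03 ± 0.61. Rufy4 (-7.24 ± 0.30), which lies beside Cxcr2, the meiosis gene Sycp2 (-6.99 ± 0.28) and Spatc1 (-6.79 ± 0.32) were the others. H2-Q10, a class I gene close in sequence to other H2-Q genes, was at 10.14, 8.78, 10.11 and 10.85 in the PMN libraries and 3.15, 3.04, 3.14 and 3.47 in the monocyte libraries, and its value of -6.77 ± 0.43 is uncertain where reads of the family could be shared. The antisense gene Il1bos (-6.62 ± 0.35) overlaps Il1b (-5.98 ± 0.53), and without a known strand setting their reads cannot be told apart.

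Monocyte identity genes were mostly higher in the cells labelled monocytes. Of 21, 16 were higher, 1 was lower and 4 did not pass, with a median difference of 1.46 against 0.07 over all genes. Ccr2 was at 11.35, 11.79, 11.49 and 11.46 in the monocyte libraries and 7.99, 7.87, 7.53 and 8.37 in the PMN libraries, a difference of 3.59 ± 0.43. Csf1r, the receptor for CSF1, was at 9.61, 10.42, 9.95 and 10.48 in the monocyte libraries and 8.81, 8.04, 8.71 and 9.07 in the PMN libraries, a difference of 1.46 ± 0.36, and monocyte library 1 was the nearest to the PMN. The surface genes of the Ms4a family, Ms4a6c (3.44 ± 0.44), Ms4a4c (3.42 ± 0.45) and Ms4a6b (2.82 ± 0.41), and the fractalkine receptor gene Cx3cr1 (2.29 ± 0.51) had intermediate differences. Smaller ones were measured for Cd68 (1.41 ± 0.27), Mpeg1 (1.28 ± 0.35) and for the Ly6C genes Ly6c2 (1.07 ± 0.24) and Ly6c1 (0.90 ± 0.22), which are near-identical copies and uncertain as single genes. Treml4 was higher in PMN (-1.19 ± 0.34). Chil3 (0.47 ± 0.29), Ear2 (0.52 ± 0.31), Ace (0.85 ± 0.72) and Cd300a (-0.48 ± 0.35) did not pass.

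PMN identity genes ranged from some of the largest differences of the data to values near 0. Of 25, 21 were higher in PMN and 0 in monocytes, with a median of -3.73. Retnlg, a secreted resistin-like protein of mature neutrophils, was at 12.56, 13.02, 12.27 and 11.59 in the PMN libraries and 8.02, 5.10, 7.02 and 5.11 in the monocyte libraries, a difference of -6.05 ± 0.91. Il1b differed by -5.98 ± 0.53, Clec4d by -5.56 ± 0.34, Stfa2l1 by -5.53 ± 1.10, Fpr1 by -5.51 ± 0.63 and Asprv1 by -5.33 ± 0.95. Ly6g, which encodes the antigen used to gate neutrophils, was at 9.48, 9.996, 9.36 and 9.03 in the PMN libraries and 6.85, 5.24, 7.53 and 7.26 in the monocyte libraries, a difference of -2.74 ± 0.78. At the other end, S100a8, a calcium-binding protein that fills the neutrophil cytosol, was at 14.05, 14.05, 14.05 and 14.05 in the PMN libraries and 14.05, 13.27, 14.05 and 13.44 in the monocyte libraries, a difference of -0.35 ± 0.29 that did not pass, and S100a9 differed by -0.56 ± 0.23. S100a9 did not pass without monocyte library 1, 2 or 4 or PMN library 1, 2, 3 or 4 (-0.61 to -0.46, highest limma adjusted p = 0.139). S100a8 was the most abundant gene in all 4 PMN libraries and held rank 1 to 4 in monocytes, and the shared distribution of values limits how far such top genes can differ. Cd177 (-0.67 ± 0.46), Wfdc21 (-1.12 ± 0.56) and Pglyrp1 (-1.27 ± 0.56) did not pass.

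Granule genes were called in both directions. In the azurophil list 7 of 9 genes were higher in monocytes and 0 in PMN, with a median of 2.71. Besides Elane, Prtn3, Ctsg and Mpo these were Ms4a3 (2.71 ± 0.44), a gene of granulocyte-monocyte progenitors, Fcnb (2.41 ± 0.43), which encodes ficolin B, and the chaperone gene Calr (1.73 ± 0.21), while Prss57 (0.03 ± 0.41) and Igsf6 (-0.16 ± 0.14) did not pass. Of the 19 genes in the list of specific and gelatinase granules, 10 were higher in PMN, 1, the lysozyme gene Lyz1 (0.95 ± 0.19), was higher in monocytes and 8 did not pass, with a median of -0.78. Lyz1 and Lyz2 are close copies and uncertain as single genes. Camp, the cathelicidin, was at 12.56, 12.19, 12.76 and 12.50 in the monocyte libraries and 12.76, 12.62, 12.76 and 12.69 in the PMN libraries, a difference of -0.20 ± 0.33. Ngp, neutrophilic granule protein, was at 13.14, 12.83, 13.68 and 13.14 in the monocyte libraries and 13.44, 13.44, 13.44 and 13.44 in the PMN libraries (-0.25 ± 0.27), and for both genes the cell types overlapped and the test did not pass. Lcn2 (-0.69 ± 0.41), Lyz2 (0.30 ± 0.24) and Chil3 did not pass, whereas the lactoferrin gene Ltf (-0.88 ± 0.37) and the haptoglobin gene Hp (-0.78 ± 0.19) were higher in PMN. Leaving out single libraries ended the call of Ltf, for monocyte library 1, 2 or 4 or PMN library 1, 2, 3 or 4 (-0.97 to -0.69, highest limma adjusted p = 0.14).

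Other members of this list had larger differences. Mmp9, gelatinase B, was at 12.05, 12.27, 12.31 and 11.99 in the PMN libraries and 7.47, 4.90, 7.37 and 6.40 in the monocyte libraries, a difference of -5.62 ± 0.92. Mmp8, neutrophil collagenase, was at 11.01, 12.15, 11.001 and 10.58 in the PMN libraries and 9.45, 7.98, 7.82 and 7.17 in the monocyte libraries, a difference of -3.08 ± 0.45, with monocyte library 1 the highest of the monocytes. The metalloprotease gene Adam8 (-5.18 ± 0.55), the arginase gene Arg2 (-5.89 ± 0.28), Ceacam10 (-3.78 ± 0.71) and the olfactomedin gene Olfm4 (-2.34 ± 0.80) were also higher in PMN. The call of Olfm4 was lost without monocyte library 2 or PMN library 2 (-2.13 to -1.86, highest limma adjusted p = 0.0668). The mean of the PMN identity list in the monocyte libraries was 7.44, 6.28, 7.23 and 6.49, and that of the azurophil list was 8.46, 8.47, 8.62 and 8.13. The part of granulocyte precursors in the sorted monocytes was not tested, and in bulk samples fewer cells of a type and less RNA per cell cannot be told apart.

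Transcription factors of the lineages were called in both directions, 11 of 39 higher in monocytes and 12 higher in PMN, with a median of 0.17 (0.30 without PMN library 4, and 0.31, 0.11, 0.27 and 0.11 without monocyte library 1, 2, 3 and 4). These shares, 28.2% and 30.8%, were below the 37.6% and 32.1% of all genes. Irf8, required for monocytes and dendritic cells, was at 7.63, 7.84, 7.30 and 7.64 in the monocyte libraries and 5.49, 5.19, 4.74 and 5.58 in the PMN libraries, a difference of 2.35 ± 0.31 (limma adjusted p = 2.55e-05). Klf4, which drives monocyte differentiation, was at 7.38, 8.05, 7.14 and 7.32 in the monocyte libraries and 5.16, 4.49, 4.31 and 5.20 in the PMN libraries, a difference of 2.68 ± 0.32. The MITF-family factor Tfec had the largest difference of the list (3.79 ± 0.52), followed at a distance by Irf5 (2.17 ± 0.27), Cebpa (1.99 ± 0.30), Irf4 (1.47 ± 0.57), Tcf4 (1.44 ± 0.32) and Zeb2 (1.20 ± 0.36). Runx1 (0.98 ± 0.26) and Runx3 (0.68 ± 0.24) were higher in monocytes and Runx2 (-1.76 ± 0.24) in PMN. Irf4 did not pass without monocyte library 2, 3 or 4 or PMN library 1, 2 or 3 (1.16 to 1.49, highest limma adjusted p = 0.104). Leaving out single libraries ended the call of Runx3, for monocyte library 2 or 4 or PMN library 2 or 3 (0.55 to 0.61, highest limma adjusted p = 0.0739).

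The factors higher in PMN included immediate early genes, which respond fast to stimulation. Junb was at 11.32, 10.79, 11.27 and 11.29 in the PMN libraries and 8.75, 9.04, 8.48 and 8.85 in the monocyte libraries, a difference of -2.39 ± 0.22. Fos (-1.60 ± 0.51), Egr1 (-1.63 ± 0.36), Egr2 (-1.38 ± 0.48), Klf2 (-1.82 ± 0.27), Bhlhe40 (-1.52 ± 0.42), Cebpd (-1.49 ± 0.20), Nfil3 (-1.08 ± 0.19) and the retinoic acid receptor gene Rara (-1.26 ± 0.28) were in the same direction. The call of Egr2 was lost without monocyte library 1 or PMN library 1, 3 or 4 (-1.30 to -0.99, highest limma adjusted p = 0.0701). Spi1, which encodes PU.1, differed by -0.72 ± 0.09 and Stat3, the signal of the G-CSF receptor, by -0.63 ± 0.10. The factors of granulocyte precursors Cebpe (0.53 ± 0.55) and Gfi1 (0.68 ± 0.52) did not pass, nor did Cebpb (-0.35 ± 0.28), Nr4a1 (0.63 ± 0.45), Myb (0.60 ± 0.35) or Myc (0.56 ± 0.40).

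**Figure D3:**
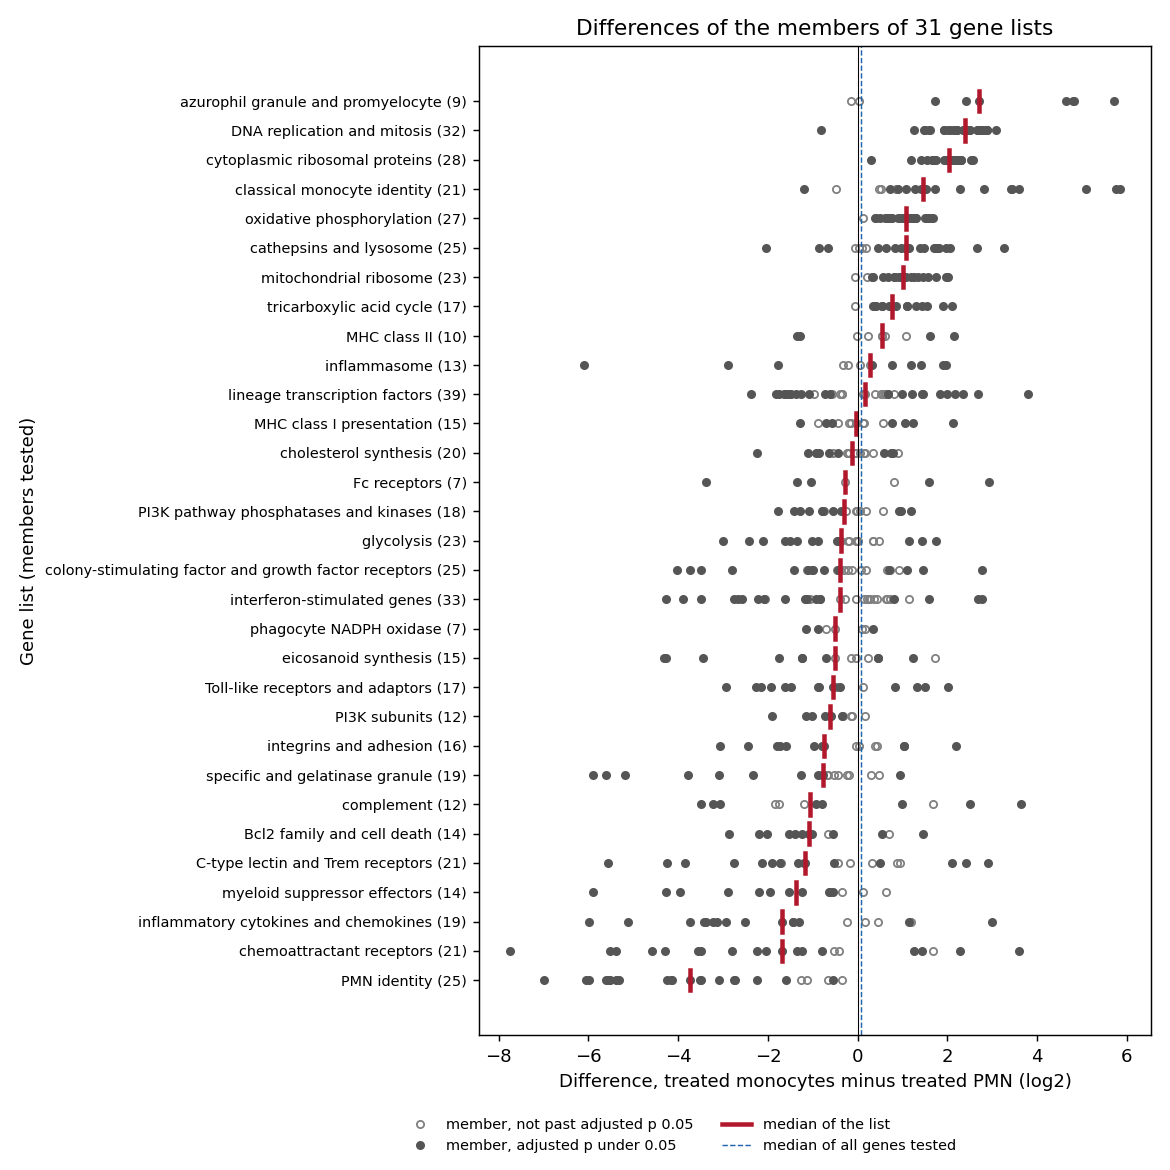
Difference between treated monocytes and treated PMN (x axis, log2, monocytes minus PMN) for every tested member of 31 gene lists (y axis), with filled circles for members past an adjusted p of 0.05, open circles for the others, red bars for the list medians and a dashed line for the median of all genes. The azurophil, DNA replication and ribosomal lists lie to the right and the PMN identity list farthest to the left.

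Receptors that read chemoattractants were for the most part PMN genes. Of 21, 14 were higher in PMN and 4 in monocytes, with a median of -1.68. Besides Cxcr1 and Cxcr2 the group held the formyl peptide receptors Fpr1 (-5.51 ± 0.63) and Fpr2 (-2.25 ± 0.53), the C5a receptors C5ar2 (-4.29 ± 0.41) and C5ar1 (-3.49 ± 0.50), the nucleotide receptor P2ry13 (-3.55 ± 0.19), the chemokine receptor Ccr1 (-2.80 ± 0.31) and the platelet-activating factor receptor Ptafr (-2.04 ± 0.22). Cxcr4, which holds cells in the marrow, was at 9.70, 9.33, 9.65 and 10.16 in the PMN libraries and 9.35, 8.53, 8.94 and 8.82 in the monocyte libraries, a difference of -0.80 ± 0.23 with a slight overlap of the libraries. The eotaxin receptor Ccr3 differed by -4.58 ± 0.45, and eosinophil genes moved with it, as given below. The monocyte-side receptors included Ccr2, Cx3cr1 and Cmklr1 (1.25 ± 0.29). The leukotriene B4 receptor Ltb4r1 (-0.53 ± 0.28) did not pass.

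Of 25 cytokine and growth factor receptors, 10 were higher in PMN and 4 in monocytes. That is 40% and 16% of the list, beside 32.1% and 37.6% of all genes. Il1rap, the shared chain of the interleukin 1 receptors, differed by -4.03 ± 0.27, the decoy receptor Il1r2 by -3.49 ± 0.80 and Il18r1 by -2.81 ± 0.47. The chains of the GM-CSF receptor differed little, Csf2rb by -0.75 ± 0.13 and Csf2ra by -0.43 ± 0.16. On the monocyte side were Il6st, which encodes the shared chain of the interleukin 6 family receptors (2.78 ± 0.39), Csf1r, Il3ra (1.10 ± 0.24) and Ifngr1 (0.69 ± 0.24). Both type I interferon receptor chains, Ifnar1 (-0.23 ± 0.22) and Ifnar2 (0.19 ± 0.17), did not pass. Csf2ra did not pass without monocyte library 1 or 2 or PMN library 1 or 2 (-0.43 to -0.39, highest limma adjusted p = 0.075). Leaving out single libraries ended the call of Ifngr1, for monocyte library 4 or PMN library 1 or 2 (0.55 to 0.63, highest limma adjusted p = 0.066).

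Adhesion genes, Fc receptors and pattern receptors each had members on both sides. Of the adhesion genes 50% were higher in PMN and 18.8% in monocytes, against 32.1% and 37.6% of all genes. Among 16 adhesion genes, 8 were higher in PMN, led by Itgax (-3.06 ± 0.35), Selplg (-2.44 ± 0.18), which encodes the selectin ligand PSGL1, and Cd44 (-1.79 ± 0.14), and 3 were higher in monocytes: Itgb7 (2.18 ± 0.37), Itgb1 (1.03 ± 0.23) and Icam1 (1.02 ± 0.41). Itgam, which encodes CD11b, was at 11.17, 11.20, 11.16 and 11.001 in the PMN libraries and 10.41, 10.03, 10.55 and 10.33 in the monocyte libraries, a difference of -0.80 ± 0.16. Of the Fc receptors for IgG, Fcgr1 was higher in monocytes (2.94 ± 0.45) and Fcgr4 (-3.37 ± 0.51) and Fcgr3 (-1.04 ± 0.12) in PMN, while Fcgr2b (0.81 ± 0.60) did not pass. Fcgr4 is the murine low-to-intermediate affinity receptor carried by neutrophils and by nonclassical monocytes. The call of Icam1 was lost without monocyte library 2, 3 or 4 or PMN library 1, 2 or 3 (0.78 to 1.06, highest limma adjusted p = 0.121).

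Toll-like receptors of the cell surface and of the endosome were called in opposite directions. Those of the surface were higher in PMN: Cd14, the lipopolysaccharide co-receptor (-2.93 ± 0.38), Tlr4 (-2.16 ± 0.23), Tlr5 (-1.92 ± 0.29), Tlr6 (-2.26 ± 0.24) and Tlr2 (-0.54 ± 0.22), while Tlr1 (-0.49 ± 0.39) did not pass. Tlr2 did not pass without monocyte library 1, 3 or 4 or PMN library 1, 2 or 4 (-0.57 to -0.44, highest limma adjusted p = 0.124). Endosomal receptors were higher in monocytes, Tlr9 (2.01 ± 0.47) and Tlr3 (1.5004 ± 0.47), together with their carrier Unc93b1 (0.82 ± 0.16). Of the 17 genes in the list, 10 were higher in PMN and 4 in monocytes. Tlr7, Tlr8 and Tlr13 were not analysed here. Among 21 C-type lectin and Trem receptors, 11 were higher in PMN and 4 in monocytes. Clec4d (-5.56 ± 0.34), Trem1 (-4.24 ± 0.53) and Clec4e (-2.76 ± 0.30) led the PMN side, and Trem2 (2.91 ± 0.67), Clec4a1 (2.42 ± 0.45) and Clec4a3 (2.10 ± 0.41) the monocyte side.

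Cytokines and chemokines were higher in PMN in 13 of 19 genes and higher in monocytes in 2, with a median of -1.68 (-2.73 over the 16 members left by a stricter filter on low values). Il1b, the precursor of interleukin 1 beta, was at 11.90, 10.70, 12.12 and 12.19 in the PMN libraries and 4.04, 6.24, 5.97 and 6.73 in the monocyte libraries. Csf1, the ligand of the monocyte receptor Csf1r, was at 7.07, 7.42, 7.24 and 7.70 in the PMN libraries and 2.51, 2.04, 2.52 and 1.87 in the monocyte libraries, a difference of -5.12 ± 0.18 (limma adjusted p = 2.59e-09). The ligand was higher in the cells where its receptor was lower, and no PMN library overlapped a monocyte library for either gene. Ccl4 (-3.74 ± 0.47), Osm (-3.43 ± 0.42), Tnfsf14 (-3.38 ± 0.23), Il15 (-3.13 ± 0.22), Il1rn (-2.94 ± 0.30) and Tnf (-1.30 ± 0.22) were also higher in PMN, and Ccl9 (2.99 ± 0.39) and Il18 (1.14 ± 0.36) in monocytes.

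Genes linked to suppression of T cells by myeloid cells were higher in PMN in 11 of 14 and in monocytes in 0, with a median of -1.38. Without PMN library 4, monocyte library 1 or vehicle monocyte library 3, 1 of them passed on the monocyte side. Arg2, the mitochondrial arginase, was at 7.93, 7.51, 7.71 and 8.11 in the PMN libraries and 1.79, 2.44, 1.47 and 1.98 in the monocyte libraries, a difference of -5.89 ± 0.28. Cd274, which encodes PD-L1, was at 6.63, 5.06, 6.61 and 6.94 in the PMN libraries and 2.42, 4.90, 4.24 and 4.91 in the monocyte libraries, a difference of -2.19 ± 0.56. Cd84, a marker used for myeloid-derived suppressor cells, differed by -2.89 ± 0.31, the cystine transporter gene Slc7a11 by -3.96 ± 0.30 and Ptgs2, cyclooxygenase 2, by -4.26 ± 0.65. Arg1, the cytosolic arginase, was at -3.32, -1.59, 1.92 and -3.44 in the monocyte libraries and -3.59, -1.70, 0.77 and -2.39 in the PMN libraries, near the bottom of the values except in the libraries numbered 3, and did not pass. Tgfb1 (0.64 ± 0.30) did not pass either.

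Lipid mediator, complement and inflammasome genes were called on both sides. The shares higher in PMN were 46.7% of eicosanoid, 41.7% of complement, 23.1% of inflammasome and 28.6% of oxidase genes, against 32.1% of all genes. In the same order, the shares higher in monocytes were 20%, 25%, 46.2% and 14.3%, against 37.6% of all genes. The 5-lipoxygenase gene Alox5 was higher in PMN (-1.76 ± 0.60), as were Alox5ap (-0.72 ± 0.18) and Ltc4s (-4.31 ± 0.56), among 7 of 15 eicosanoid genes higher in PMN and 3 in monocytes. The call of Alox5 was lost without monocyte library 2 (-1.40, limma adjusted p = 0.0627). Of 12 complement genes 5 were higher in PMN and 3 in monocytes, among them Cfb (2.52 ± 0.45) and C3 (0.999 ± 0.18). The C1q genes C1qa (-1.85 ± 0.85), C1qb (-1.19 ± 0.86) and C1qc (-1.75 ± 0.87) did not pass, and 8 complement genes were called on the PMN side without vehicle PMN library 3. The inflammasome list had members on both sides: the sensors Nlrp12 (-6.09 ± 0.40) and Nlrp3 (-2.89 ± 0.36) and the caspase gene Casp4 (-1.78 ± 0.34) were higher in PMN, while Nlrc4 (1.98 ± 0.34), the adaptor gene Pycard (1.90 ± 0.20) and Casp8 (1.41 ± 0.17) led the 6 higher in monocytes. Of the oxidase genes 2 were higher in PMN, among them Rac2 (-1.15 ± 0.28), and Rac1 (0.34 ± 0.11) was higher in monocytes, while Cybb was not analysed here. Without vehicle monocyte library 3, 4 oxidase genes passed on the PMN side.

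Interferon-stimulated genes did not move as 1 group. Of 33, 13 were higher in PMN, 4 were higher in monocytes and 16 did not pass. These shares, 39.4% in PMN and 12.1% in monocytes, stood beside 32.1% and 37.6% of all genes. The PMN side was led by the oligoadenylate synthetase-like genes Oasl2 (-4.28 ± 0.79) and Oasl1 (-3.89 ± 0.31) and by Rsad2 (-3.49 ± 0.52) and Ifit1 (-2.75 ± 0.63). On the monocyte side were Mx1 (2.77 ± 0.66), Mx2 (2.69 ± 0.49), Bst2 (1.60 ± 0.43) and Ifitm3 (0.82 ± 0.31), and Isg15 (-1.06 ± 0.63) and Irf7 (-0.39 ± 0.52) did not pass. The call of Ifitm3 was lost without monocyte library 2 or 4 or PMN library 1, 3 or 4 (0.65 to 0.83, highest limma adjusted p = 0.0914). Antigen presentation was as divided. In MHC class II the classical chains H2-Aa (0.54 ± 0.76), H2-Ab1 (0.61 ± 0.78) and H2-Eb1 (-0.02 ± 0.76) and Cd74 (0.55 ± 0.69) did not pass, while the peptide exchange genes H2-DMa (2.14 ± 0.55) and H2-DMb1 (1.62 ± 0.66) were higher in monocytes and the B cell chains H2-Oa (-1.29 ± 0.28) and H2-Ob (-1.35 ± 0.36) in PMN. The list mean varied within the monocytes more than between the cell types, at 5.88, 7.84, 7.29 and 8.39 in monocytes and 7.23, 6.45, 6.48 and 7.60 in PMN. H2-DMb1 did not pass without monocyte library 2, 3 or 4 or PMN library 1, 2 or 3 (1.28 to 1.72, highest limma adjusted p = 0.123).

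Lysosomal genes were a monocyte group. Of 25, 18 were higher in monocytes and 3 in PMN, with a median of 1.07. Ctss, the cathepsin of antigen processing, was at 9.92, 10.51, 10.10 and 10.56 in the monocyte libraries and 7.58, 7.61, 7.41 and 7.82 in the PMN libraries, a difference of 2.67 ± 0.38. Ctsc, the enzyme that activates the granule serine proteases, was at 9.43, 10.26, 9.42 and 9.55 in the monocyte libraries and 6.35, 6.49, 6.32 and 6.49 in the PMN libraries, a difference of 3.25 ± 0.39. The cholesterol carrier gene Npc2 (2.07 ± 0.29) and Gusb (1.97 ± 0.12), which encodes beta-glucuronidase, were next, and the exceptions were Ctsd (-2.04 ± 0.23), Tfeb (-0.85 ± 0.15) and Man2b1 (-0.66 ± 0.14). Among genes of cell death the anti-apoptotic Mcl1 (-1.40 ± 0.23) and Bcl2l1 (-2.02 ± 0.35) and the death receptor gene Fas (-2.20 ± 0.30) were higher in PMN, 9 of 14 in all, and Bax (1.45 ± 0.19) and Bak1 (0.54 ± 0.14) in monocytes.

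The target of the drug was present in both cell types. Pik3cd, which encodes p110δ, was at 8.49, 8.83, 8.51 and 8.69 in the monocyte libraries and 9.05, 8.65, 9.11 and 9.06 in the PMN libraries, a difference of -0.34 ± 0.19 that did not pass (limma adjusted p = 0.129), and PMN library 2 lay within the monocyte range. Of 12 PI3K subunit genes, 8 were higher in PMN and 0 in monocytes, with a median of -0.61. The regulatory subunit Pik3r1, which binds p110δ, was at 7.15, 6.83, 6.93 and 7.09 in the PMN libraries and 5.9996, 5.84, 5.92 and 5.66 in the monocyte libraries, a difference of -1.15 ± 0.12. Pik3cg, the catalytic subunit downstream of chemoattractant receptors, differed by -0.61 ± 0.14, and its regulatory partner Pik3r5 by -1.02 ± 0.16, while the other partner, Pik3r6 (-0.14 ± 0.18), did not pass. Pik3ca (-0.73 ± 0.14), Pik3cb (-0.60 ± 0.24), Pik3c2a (-0.61 ± 0.13), Pik3c2b (-1.92 ± 0.35) and Pik3r4 (-0.35 ± 0.12) were higher in PMN. Leaving out single libraries ended the call of Pik3cb, for monocyte library 1, 2 or 4 or PMN library 1, 2, 3 or 4 (-0.63 to -0.49, highest limma adjusted p = 0.104). Downstream, Foxo3 (-1.77 ± 0.15), Rictor (-1.43 ± 0.13) and Akt2 (-0.80 ± 0.09) were higher in PMN, and Rptor (0.97 ± 0.11) and Inppl1 (0.91 ± 0.20) in monocytes. Inpp5d, which encodes SHIP1, differed by 0.19 ± 0.09 and did not pass. Of 18 pathway genes, 8 were higher in PMN and 3 in monocytes, or 5 in monocytes without vehicle monocyte library 3. With all libraries the shares were 44.4% in PMN and 16.7% in monocytes, beside 32.1% and 37.6% of all genes.

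Genes of growth and respiration were higher in monocytes in near-complete lists. Of 27 oxidative phosphorylation genes 26 were higher in monocytes (median 1.08), of 17 tricarboxylic acid cycle genes 16 (median 0.76), of 23 mitochondrial ribosome genes 21 (median 1.02) and of 28 cytoplasmic ribosomal protein genes 28 (median 2.03), and 0 of these lists had a member higher in PMN. Atp5a1, of the ATP synthase, was at 10.11, 10.21, 10.09 and 9.94 in the monocyte libraries and 8.35, 8.46, 8.32 and 8.53 in the PMN libraries, a difference of 1.68 ± 0.12. Fh1, fumarase, differed by 2.11 ± 0.27, Rpl3 by 2.57 ± 0.20 and Rpl10a by 2.53 ± 0.19. Ribosomal protein genes have many processed copies, and how reads shared with them were counted is not given.

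Of 23 glycolysis genes, 10 were higher in PMN and 3 in monocytes, and without PMN library 2 the counts were 8 and 5. With all libraries the shares were 43.5% and 13%, beside 32.1% and 37.6% of all genes. The genes with the largest differences on the PMN side were the glucose transporters Slc2a3 (-3.001 ± 0.63) and Slc2a1 (-2.43 ± 0.22), the lactate exporter Slc16a3 (-2.11 ± 0.22) and the glycogen phosphorylase Pygl (-1.62 ± 0.23). Slc2a3 was at 9.13, 9.53, 9.11 and 9.03 in the PMN libraries and 6.52, 4.95, 7.11 and 6.22 in the monocyte libraries, with no overlap between cell types. The core enzymes Gapdh (0.001 ± 0.25), Pkm (-0.21 ± 0.17) and Aldoa (-0.18 ± 0.26) did not pass. Of 20 cholesterol synthesis genes, 6 were higher in PMN, led by Sc5d (-2.25 ± 0.23) and Msmo1 (-1.11 ± 0.18). That is 30% of the list, near the 32.1% of all genes. On the monocyte side 3 passed, which fell to 1 without PMN library 1 or 4 or monocyte library 2 or 4.

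DNA replication and mitosis genes were higher in monocytes in 31 of 32, with a median of 2.39. Rrm2, the small subunit of ribonucleotide reductase, was at 8.88, 8.36, 8.97 and 8.46 in the monocyte libraries and 5.82, 5.95, 5.39 and 5.20 in the PMN libraries, a difference of 3.08 ± 0.33. Top2a, the topoisomerase of dividing cells, differed by 2.88 ± 0.28 and Mcm5, of the replicative helicase, by 2.89 ± 0.28. Mki67, the proliferation marker, was at 9.99, 9.21, 9.86 and 9.04 in the monocyte libraries and 7.60, 7.92, 7.61 and 7.23 in the PMN libraries, a difference of 1.93 ± 0.30, so dividing-cell transcripts were present in both populations. The exception was Gins2, which was higher in PMN (-0.83 ± 0.20). List means were 7.34, 6.81, 7.24 and 6.66 in the monocyte and 4.92, 5.11, 4.67 and 4.44 in the PMN libraries, with no overlap.

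Genes of lymphocytes and eosinophils were higher in the PMN libraries. Of 12 genes of NK and cytotoxic lymphocytes, 11 were higher in PMN, beside 32.1% of all genes. Members such as Klra8 lay below 0 in every treated monocyte library and passed the filter through other libraries. The filter thus partly sets the NK count. List means were 4.98, 2.82, 4.24 and 4.76 in PMN and 0.53, 0.64, 0.28 and 1.31 in monocytes. Gzma, granzyme A, was at 7.15, 4.52, 6.11 and 6.77 in the PMN libraries and 0.78, 1.40, 0.31 and 1.52 in the monocyte libraries, a difference of -5.13 ± 1.11, Ncr1 differed by -4.63 ± 0.996 and Gzmb by -4.39 ± 1.23. All 7 eosinophil genes were higher in PMN, beside 32.1% of all genes. Their list means were 5.26, 4.11, 2.32 and 2.29 in PMN and 0.13, -0.39, -0.50 and -0.77 in monocytes. In the monocytes the means of Epx (-2.77 ± 1.12, SD), Ear1 (-1.45 ± 0.38) and Ccr3 (-0.48 ± 0.46) lay below 0. Such genes passed the filter mainly through other libraries, so the filter partly sets the eosinophil count. Siglecf, the eosinophil surface lectin, was at 6.49, 6.29, 7.41 and 6.37 in the PMN libraries and 2.59, 2.27, 3.24 and 2.91 in the monocyte libraries, and Prg2, major basic protein, at 6.16, 5.10, 2.05 and 2.997 in the PMN libraries and 1.95, 0.80, -2.03 and -0.52 in the monocyte libraries. PMN libraries 1 and 2 were the higher ones for Prg2 and for the list mean, and library 2 was lowest for the cytotoxic list. The part of eosinophils and NK cells in the PMN-side values of Ccr3, Ltc4s, Alox15 (-3.45 ± 1.02), Gzmb and other genes of these lists was not tested. The call of Ear1 was lost without monocyte library 3 or 4 or PMN library 1 or 2 (-3.26 to -2.45, highest limma adjusted p = 0.0836).

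B cell genes were higher in PMN in 12 of 14 and T cell genes in 8 of 16, beside 32.1% of all genes. Of the T cell genes 4 passed without monocyte library 3, and 5 without monocyte library 1 or 2 or PMN library 4. Cd79a was at 5.45, 5.62, 5.04 and 5.26 in the PMN libraries and 4.38, 3.88, 2.65 and 4.15 in the monocyte libraries, a difference of -1.58 ± 0.39, and Cd3d differed by -2.05 ± 0.59, while Ighm (-0.11 ± 0.45) did not pass. Of 4 platelet genes 3 were higher in PMN, led by Gp1ba (-3.51 ± 0.36) and Itga2b (-2.76 ± 0.27). Among 13 red pulp macrophage genes Slc40a1, the iron exporter ferroportin, stood out at 10.22, 9.55, 10.46 and 10.52 in the PMN libraries and 6.20, 5.48, 6.99 and 6.40 in the monocyte libraries, a difference of -3.92 ± 0.50, while Spic (0.26 ± 0.80) and Vcam1 (0.34 ± 0.37) did not pass. Of this list 4 genes (30.8%, against 32.1% of all genes) were higher in PMN, or 7 without vehicle PMN library 3. On the monocyte side 1 passed, or 2 without vehicle PMN library 2. None of 11 erythroid genes passed, and the hemoglobin gene Hbb-bs was at 10.65, 9.52, 8.32 and 8.88 in the monocyte libraries and 7.72, 9.60, 8.67 and 8.26 in the PMN libraries. In the conventional dendritic cell list 5 of 13 genes were higher in PMN, with Clec9a (-3.67 ± 0.42) the largest difference, and 2 in monocytes. The PMN share was 38.5%, against 32.1% of all genes. Leaving out single treated libraries gave 2 to 5 genes higher in PMN and 0 to 1 in monocytes. Of 8 stem and progenitor genes Meis1 was higher in monocytes (2.32 ± 0.49) and Cd34 (0.47 ± 0.57), Kit (-1.14 ± 0.67) and Flt3 (0.92 ± 0.64) did not pass, while 1 gene passed on the PMN side without any 1 of the vehicle monocyte libraries or monocyte library 4.

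**Figure D4:**
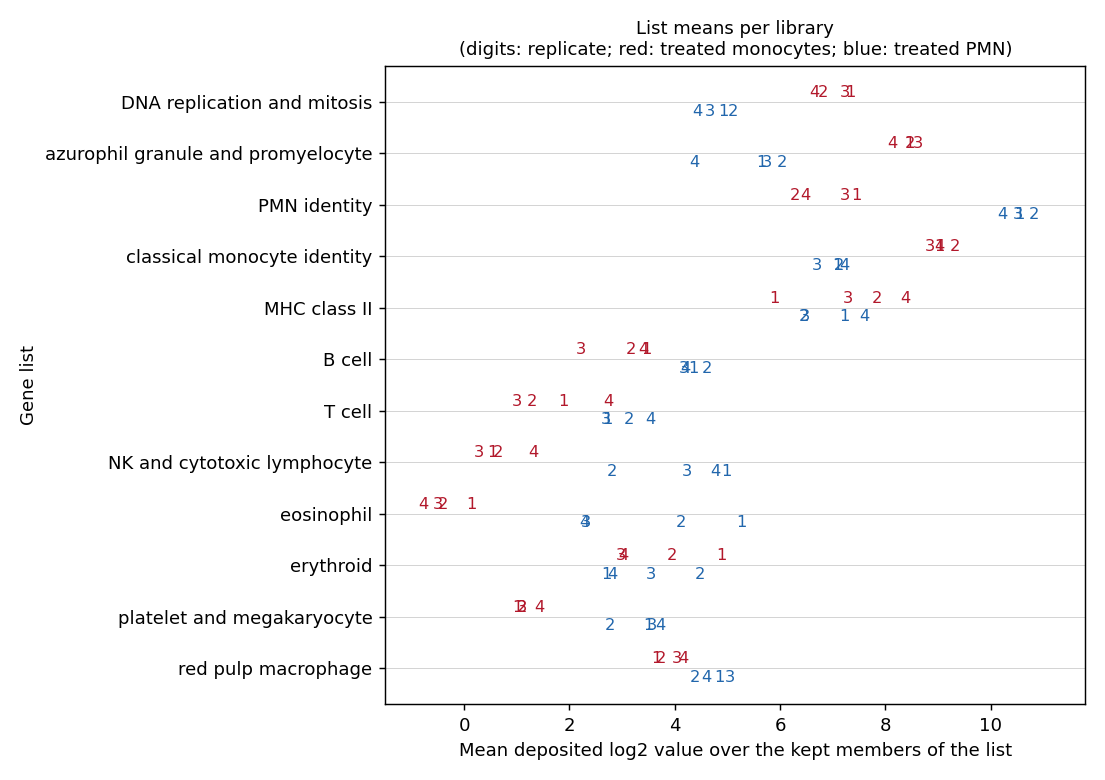
Mean deposited log2 value over the tested members of 12 gene lists (x axis) in each treated library, with red digits for monocyte and blue digits for PMN replicate numbers. The lists of PMN identity, eosinophil, NK and platelet genes lie to the right in PMN, PMN library 4 is the lowest for azurophil genes, and the MHC class II means of the cell types overlap.

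Some of the largest differences were shared by neighbouring genes. Runs of at least 3 adjacent genes, each higher in the same cell type by at least 2, numbered 65 in PMN and 16 in monocytes. Gaps were at most 100000 bases, and overlapping antisense and small RNA genes count as neighbours. More genes passed this difference in PMN (1162) than in monocytes (778). Whether the runs exceed what such numbers of genes would give was not tested. On chromosome 1 the run of Tns1 (-4.55 ± 0.46), Rufy4, Cxcr2 and Cxcr1 spanned chr1:73910231-74194631, and the next tested gene, Arpc2 (0.04 ± 0.10), did not pass. The formyl peptide receptors Fpr1, Fpr2 and Fpr3 (-2.81 ± 0.47) formed another on chromosome 17, and the lectin genes Clec4n (-2.14 ± 0.61), Clec4d and Clec4e one on chromosome 6. The longest, with 17 genes on chromosome 6, held Klr receptor genes, many of them known from NK cells. Among them Klre1 was at 4.21, 1.65, 3.04 and 4.06 in the PMN libraries, lowest in library 2. Klra17 was at 6.52, 6.30, 6.30 and 6.18, without that drop. In monocytes a run of 6 genes of the Ifi200 family on chromosome 1 reached from 2.29 (Ifi203-ps) to 3.43 (Ifi207).

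**Figure D5:**
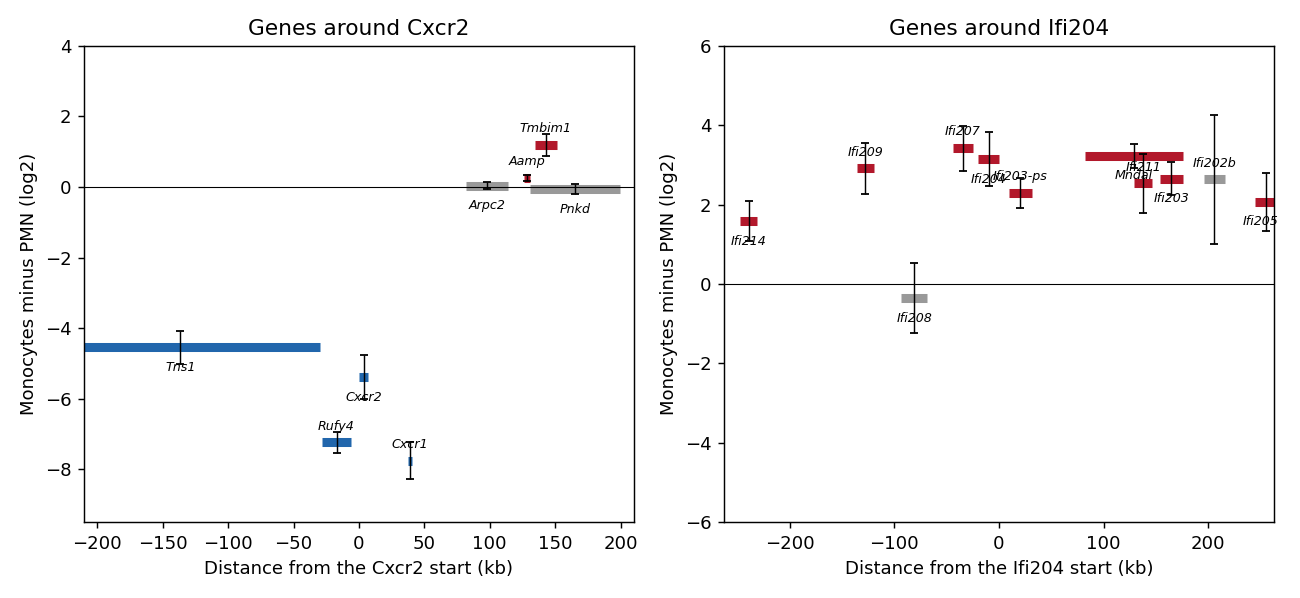
Difference between treated monocytes and treated PMN (y axis, log2, monocytes minus PMN) of tested genes against their distance from the start of Cxcr2 (left) and Ifi204 (right) in kb, drawn as bars over each gene's extent with the standard error. Red and blue bars are genes higher in monocytes and PMN past an adjusted p of 0.05, grey bars the others, and the 4 genes from Tns1 to Cxcr1 lie at -4.55 or lower while Arpc2 and Pnkd lie near 0.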

How the data were processed

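Expression was measured by RNA sequencing (100 base, paired ends) in cells sorted from mouse spleen, and 8 libraries are compared. The authors deposited log2 values per gene, named log2 RPKM, and per the submitters' processing notes used TopHat2, STAR and limma with mm10, with no version or role given. Depth is unknown, so no counting interval is given. Symbols and positions were matched to GENCODE M21 (GRCm38) for 13886 of 14131 identifiers. Genes on X or Y were not analysed here.

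Genes with a value of at least 0 in at least 3 of 14 sorted-cell libraries were tested with limma 3.58.1 (R 4.3.3, statmod 1.5.0; mean trend, two-sided) in 1 fit of 4 groups, with Benjamini-Hochberg adjustment over all 13968. Groups followed the labels, and no replicate block was used. Deviations of same-numbered libraries correlated positively in all vehicle pairs and in only some of the treated pairs. The members and the 43 gene lists were chosen with earlier results of these data known. Named genes are the 12 largest differences in each direction whose mean in the higher cell type reaches 3 (without predicted models, small RNA genes or receptor segments), all members of short lists and up to 4 called members of each other list. A further 45 named genes were chosen after their values were seen, mostly as further list members. Some genes that the rule names are not reported here. On simulated data the fit recovered 28, 64, 92 and 90% of genes changed 1.5-, 2-, 4- and 8-fold, and 3 unchanged genes were called. The simulation drew independent noise and changed a small share of genes, far below the 69.6% called here. These rates therefore need not hold for the real comparison. Alternatives were other filters, log2 of the value plus 1, other scalings and variance settings, array weights, the 8 treated libraries alone, a replicate block and each library left out. Figures were drawn with matplotlib 3.10.9.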

Additional observations from a re-analysis of the deposited data

Results flagged for a closer look

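Within the 4 libraries of a treated group, 1 library was set far apart from the other 3 (a gap beyond Dixon's critical value) in 21 of 622 groups of values examined, for 268 genes and 43 list means, where chance gives about 31. In PMN library 4 the azurophil granule gene Ctsg was low at 0.12, as was Gm11505, the antisense gene of Mpo, at 1.12. PMN library 2 was low for Egr2 (1.39), Junb (10.8), Pik3cd (8.65) and the mean of the PI3K subunits (6.38), and high for Msmo1 (6.84) and the mean of the stem and progenitor list (2.26). PMN library 3 stood apart for C1qa (3.99), Nlrc4 (0.86) and the complement mean (6.004), and PMN library 1 for Spatc1 (6.27). Among monocytes, library 2 stood apart for Ctsc (10.3), Zeb2 (8.49) and the means of cathepsins and lysosome (8.30) and of the tricarboxylic acid cycle (6.75). Monocyte library 1 did so for Flt3 (5.44) and the means of inflammatory cytokines (3.01), mast cell and basophil (1.75) and stem and progenitor genes (2.39), and monocyte library 4 was low for Prtn3 (8.21).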

How the results depend on the processing

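The number of genes called was 9017 to 10153 when each library was left out, with 4875 to 5459 higher in monocytes, 4118 to 4694 higher in PMN, 688 to 835 higher in monocytes by at least 2 and 1107 to 1180 higher in PMN by at least 2. Of the 6 counts, 1 left its 1.5-fold range under any alternative: on the log2 of the value plus 1, 447 genes were higher in monocytes by at least 2, since adding 1 shrinks the differences of low genes. The interaction with treatment was called for 0 genes under all alternatives that allow it. Under the stricter filter, which leaves fewer members, the median of the conventional dendritic cell list was 0.39 and that of the stem and progenitor list -1.02, opposite in sign to the reported ones. In the alternatives, no named gene changed direction with a call. With the replicate number as a block, 9770 genes were called. With only the 8 treated libraries, 16 lineage transcription factors were higher in monocytes and 14 in PMN, against 11 and 12 in the main fit. In that setting 23 PMN identity genes were higher in PMN, against 21. The numbers were not taken as a pairing, since the labels do not say that a number is a mouse. Same-numbered treated libraries had correlations of deviations of -0.134, -0.223, 0.273 and 0.45. Treated libraries 3 and 4 but not 1 and 2 correlated best with their own number. In vehicle mice the same-numbered pairs had 0.457, 0.277 and 0.0855, each the highest for its monocyte library. Depth is unknown and limits what can be said of low genes.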

Other observations

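Some gene families outside the lists were noticed after their values were seen. Histone genes of the replication-dependent clusters, which are normally made in dividing cells, went against the DNA replication genes. Of 42, 24 were higher in PMN and 1, Hist2h2be (1.51 ± 0.28), was higher in monocytes, with a median of -1.91, beside 32.1% and 37.6% of all genes. Hist1h2be differed by -4.84 ± 0.40, Hist1h2bc by -4.22 ± 0.35 and the linker histone gene Hist1h1c by -2.59 ± 0.41. Many H2A and H4 genes of these clusters have near-identical copies, such as Hist2h2aa1 and Hist2h2aa2 (both -3.87 ± 0.14), and are uncertain as single genes. The H2A genes Hist1h2ag (0.71 ± 0.38) and Hist1h2an (0.73 ± 0.40) did not pass. Which library kit each sample had is not given in the sources used here.

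Of 13 protein genes of the mitochondrial genome, 13 were higher in monocytes, beside 37.6% of all genes. Their median was 1.58, from 0.68 ± 0.21 (mt-Co2) to 2.73 ± 0.31 (mt-Nd3), in the same direction as the nuclear respiratory genes. The mitochondrial ribosomal RNA genes mt-Rnr1 (0.08 ± 0.21) and mt-Rnr2 (-0.10 ± 0.17) did not pass. The Cd300 family of immune receptors was higher in PMN in 9 of 11, beside 32.1% of all genes, while Cd300lg was higher in monocytes (2.98 ± 0.46). Cd300ld3 (-2.92 ± 0.89), Cd300ld4 (-3.02 ± 0.87) and Cd300ld5 (-2.86 ± 0.89) had nearly the same profile over the libraries and are uncertain as single genes. The Ifi200 family of chromosome 1, DNA sensors and nuclear regulators, was higher in monocytes in 8 of 12, beside 37.6% of all genes. Ifi207 (3.43 ± 0.57) and Mndal (3.23 ± 0.30) led it, while the sensor gene Aim2 (0.27 ± 0.32) did not pass. Of 23 Klr receptor genes, 19 were higher in PMN, together with the NK genes of the report, beside 32.1% of all genes. Several, such as Klra8 (mean -1.58) and Klre1 (-0.85), lay below 0 in every treated monocyte library. They passed the filter through other libraries, so the filter partly sets this count. Long noncoding genes were higher in PMN in 49.2% of 1022 and higher in monocytes in 22.4%, and pseudogenes higher in monocytes in 52.1% of 825 and higher in PMN in 19.9%.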
